A study of Arabidopsis thaliana with 42 samples.

Results

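Messenger RNA of Arabidopsis thaliana seedlings was compared between chl1-5, a mutant of the nitrate transporter gene NRT1.1, and wild type after 20 min of nitrate. The comparison comprised 6 of the 42 libraries of the study, picked by their titles: 3 labelled chl1-5 N and 3 labelled Wild type N. The comparison itself was chosen with earlier results of these data known. Of the other libraries, 12 came from seedlings (chl1-5 and wild type in KCl, and the septuple mutant nlp2,4,5,6,7,8,9 in either salt) and 24 from leaf protoplasts, which were not used here. All seedlings were 7 days old and whole, and had been grown in liquid medium under constant light with 2.5 mM ammonium succinate as their source of nitrogen. They were washed and then given 10 mM KNO3 (N) or 10 mM KCl (K) over 20 min, the letters being read from the treatment protocol. The chl1-5 N seedlings carried the mutant allele and received KNO3. The wild type N seedlings were Col-0 and received KNO3. The chl1-5 K and wild type K seedlings were their counterparts in KCl, and the septuple mutant is labelled as Col-0. The labels name no background accession for chl1-5. The growth of chl1-5 is described in a protocol text of its own and no sample carries a batch label, so batch and genotype cannot be told apart in any difference below. Nothing in the labels says whether the 3 libraries of a group came from separate cultures, so the p-values measure the spread between these libraries, which may be technical.

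NRT1.1 (also called CHL1 and NPF6.3) moves nitrate across the plasma membrane and also acts as a nitrate sensor. Nitrate that enters the cell activates NLP (NIN-like protein) transcription factors, which switch on genes for nitrate uptake, nitrate and nitrite reduction, the reducing power these steps need, and repressors that later damp the response. In the seedling these genes answer within minutes, which is why a short treatment of plants grown on ammonium is used to read them. chl1-5 has long been used as a mutant that lacks NRT1.1 function.

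The 6 libraries held 23.8 to 35.8 M (megacounts) in genes and 20014 to 21597 detected genes each. Levels are given as CPM, counts over the TMM-scaled library total in M, and differences as log2 fold changes of chl1-5 over wild type ± SE from the edgeR quasi-likelihood test, with p-values adjusted (Benjamini-Hochberg) across the 21229 genes tested. A gene was called at an adjusted p under 0.05. Where a library had 0 counts, a level up to its floor of 3 counts, 0.0997 to 0.143 CPM, remains possible by counting error alone. Wild type N replicate 1 stood apart in its alignments: 58.1% of its reads were not uniquely placed, against 17.7 to 24.7% in the other 5 libraries, and its reads without a gene came to 16.7% of those assigned, against 1.13 to 3.08%.

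The transcript of the mutated gene followed the labels. NRT1.1 was at 69.5, 109 and 77.5 CPM in chl1-5 N, against 866, 933 and 812 CPM in wild type N. The groups lay far apart, and some NRT1.1 signal remained in every chl1-5 library. The difference was -3.35 ± 0.25 (adjusted p = 7.52e-09), and it stayed called under each of the 12 alternatives tried. The labels do not describe the chl1-5 lesion, so the remaining counts were not assigned to a part of the transcript.

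The clearest difference after NRT1.1 was in its near neighbour. ELP, an extensin-like protein gene 2 places before NRT1.1 in gene order, was at 1.77, 40.2 and 7.51 CPM in chl1-5 N, against 1860, 2160 and 1310 CPM in wild type N. It is among the abundant transcripts of the wild type seedlings and was almost lost in the mutant, although chl1-5 N replicate 2 kept more of it than the other two. The difference was -6.76 ± 0.66 (adjusted p = 1.27e-06). AT1G12100, a lipid-transfer protein-like gene between ELP and NRT1.1, had 0 counts in all 3 chl1-5 N libraries, against 23, 46 and 28 counts in wild type N, at least 28.6-fold lower by the 3 counts allowed over the group (adjusted p = 0.0947). In KCl it had 0 counts in chl1-5 K and 151 in wild type K, and was called lower there (adjusted p = 0.0206). Of the 10 loci on either side of NRT1.1, 14 of 20 could be tested and ELP alone was called in nitrate. AT1G12080, the locus before ELP, was at 109 ± 8.32 CPM in chl1-5 N and 107 ± 19.4 CPM in wild type N, and AT1G12120, the locus after NRT1.1, at 20.8 ± 2.73 and 19.1 ± 2.74 CPM (SD, n = 3 each). AT1G12130, 2 places after NRT1.1, had 0 counts in chl1-5 N and 7 in wild type N. The other 11 tested neighbours had log2 fold changes of -0.88 to 1.46 and no call.

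The start regions of NRT1.1 and ELP, the pair of neighbours called lower in nitrate, and of AT3G50800 and PRP2, the protein-coding genes called higher, are shown so that the lowered locus can be set beside the raised genes. Each runs from 250 bases before to 50 bases after the annotated start in RefSeq's TAIR10.1 (the count files hold no coordinates): chr1:4104973-4105272 on the plus strand for NRT1.1, chr1:4090808-4091107 on the minus strand for ELP, chr3:18882984-18883283 on the minus strand for AT3G50800 and chr2:9062044-9062343 on the minus strand for PRP2. Capitals mark TATAAA, the core of the TATA box, searched on both strands.
NRT1.1: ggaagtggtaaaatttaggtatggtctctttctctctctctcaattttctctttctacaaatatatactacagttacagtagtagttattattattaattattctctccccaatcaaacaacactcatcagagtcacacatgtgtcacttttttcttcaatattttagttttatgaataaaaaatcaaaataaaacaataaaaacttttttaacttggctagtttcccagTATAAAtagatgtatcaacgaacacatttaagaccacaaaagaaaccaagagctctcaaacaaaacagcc
ELP: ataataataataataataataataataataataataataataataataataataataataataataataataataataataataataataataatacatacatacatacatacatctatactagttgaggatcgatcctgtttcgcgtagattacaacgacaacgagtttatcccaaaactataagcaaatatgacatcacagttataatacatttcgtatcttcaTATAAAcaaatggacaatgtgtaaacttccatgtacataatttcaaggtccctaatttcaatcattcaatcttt
AT3G50800: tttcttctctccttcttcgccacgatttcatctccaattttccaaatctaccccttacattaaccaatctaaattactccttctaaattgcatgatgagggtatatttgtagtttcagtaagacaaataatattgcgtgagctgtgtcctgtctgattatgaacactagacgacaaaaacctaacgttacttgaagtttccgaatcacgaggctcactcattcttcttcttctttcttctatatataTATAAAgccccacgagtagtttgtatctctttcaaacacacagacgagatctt
PRP2: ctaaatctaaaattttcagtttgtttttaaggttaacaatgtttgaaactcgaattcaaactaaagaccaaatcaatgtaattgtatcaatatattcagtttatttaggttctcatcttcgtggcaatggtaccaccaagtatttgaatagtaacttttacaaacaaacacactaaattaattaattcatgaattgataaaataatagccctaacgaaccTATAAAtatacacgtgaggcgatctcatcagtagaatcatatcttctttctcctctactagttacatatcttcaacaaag
Each of the 4 held 1 match, which began at position -20 in NRT1.1, -24 in ELP, -3 in AT3G50800 and -30 in PRP2, counted back from the annotated start. Of 27443 start regions of protein-coding genes, 52.1% held this core on either strand. A match describes the letters of the window only.

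Across all genes, few differences passed the test. In chl1-5 N, 13 of 21229 genes were called (0.0612%), 3 higher (0.0141%) and 10 lower (0.0471%), and 2526 genes (11.9%) had an unadjusted p under 0.05. The 3 libraries of each genotype did not overlap for 3212 genes (15.1%), higher in chl1-5 N for 1460 (6.88%) and lower for 1752 (8.25%). DESeq2 on the same libraries called 231 genes (1.09%), 85 higher (0.4%) and 146 lower (0.688%), which included all 13. The count rested on single libraries: it was 6 without wild type N replicate 1, the library with many reads not uniquely placed, 6 without chl1-5 N replicate 3 and 7 without chl1-5 N replicate 2. Without chl1-5 N replicate 1, 8 genes in place of 3 were called higher. NRT1.1, ELP, ATKDSA2, AT3G50800 and AT2G13175 kept their calls under all 12 alternatives. In bulk seedlings, fewer cells of a type and less RNA per cell cannot be told apart.

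**Figure D1:**
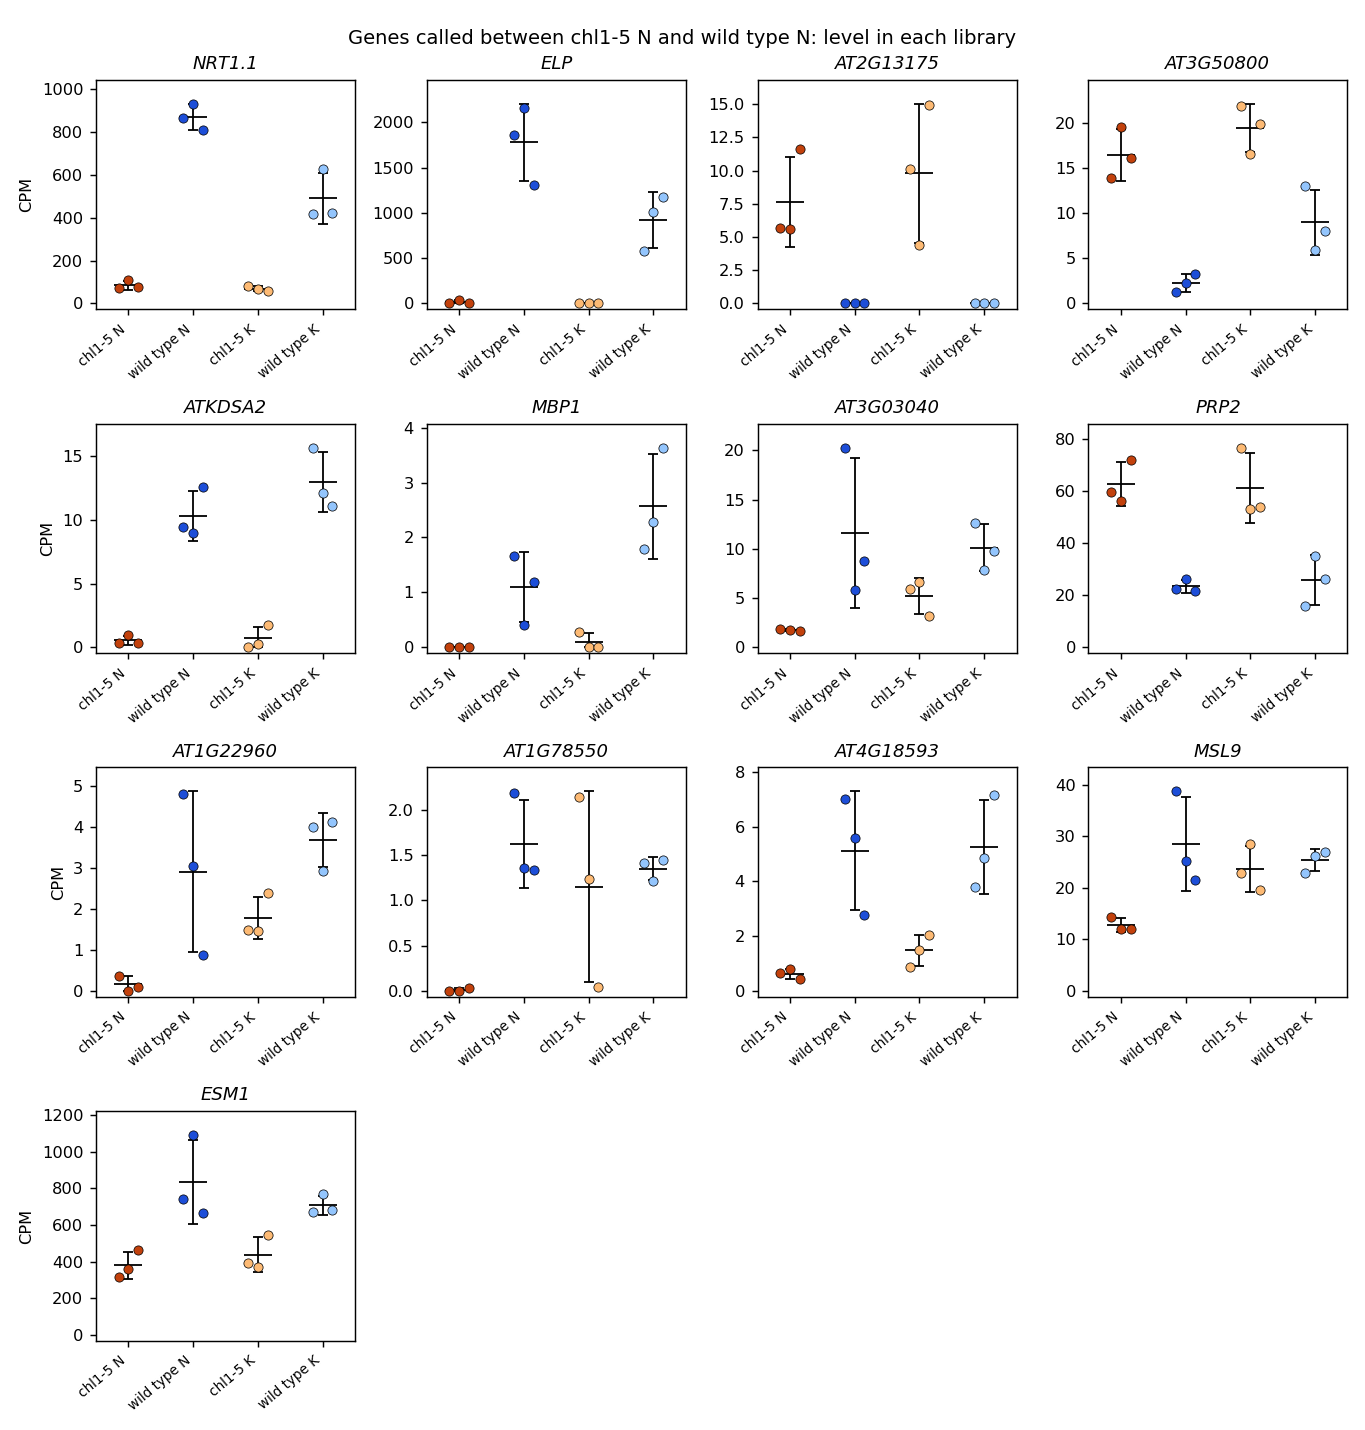
Level (CPM, linear axes from 0) of the 13 called genes in each library of chl1-5 N, wild type N, chl1-5 K and wild type K, in order of the adjusted p in nitrate; points are libraries, and bars are the mean ± SD of 3, cut at 0 below. In nitrate no gene's groups overlap, and AT1G78550 and MSL9 overlap between genotypes in KCl.

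Cell wall genes stood on both sides. PRP2, a proline-rich protein of the cell wall, was at 59.8, 56.1 and 72.1 CPM in chl1-5 N, against 22.4, 26.3 and 21.5 CPM in wild type N. All chl1-5 libraries were above all wild type libraries, a difference of 1.42 ± 0.24 (adjusted p = 0.00688). The call of PRP2 was lost without chl1-5 N replicate 3, wild type N replicate 1 or wild type N replicate 3 (adjusted p = 0.0658, 0.0884 and 0.0561). ATKDSA2, a synthase for the sugar acid KDO, which plants build into the pectin rhamnogalacturonan II, was at 0.302, 0.952 and 0.366 CPM in chl1-5 N, against 9.44, 8.97 and 12.6 CPM in wild type N. It was under 1 CPM in every mutant library, a difference of -4.29 ± 0.63 (adjusted p = 0.0015). AtkdsA1, which encodes the other enzyme of this kind, was at 15.5 ± 3.24 CPM in chl1-5 N and 18.3 ± 4.13 CPM in wild type N (SD, n = 3 each; -0.24 ± 0.24, adjusted p = 0.745).

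A pair of lowered genes is known from the glucosinolate defence system, in which myrosinases cleave stored glucosinolates. ESM1, the epithiospecifier modifier that shifts the breakdown products towards isothiocyanates, was at 318, 358 and 461 CPM in chl1-5 N, against 741, 1090 and 668 CPM in wild type N. The groups did not overlap, and the difference was -1.14 ± 0.22 (adjusted p = 0.0454). Its call was lost when any library but wild type N replicate 3 was left out (adjusted p between 0.0633 and 0.21). MBP1, a myrosinase-binding protein, had 0 counts in all 3 chl1-5 N libraries, against 42, 12 and 35 counts in wild type N, at least 26.2-fold lower by the 3 counts allowed over the group (adjusted p = 0.00551, and 0.0589 without chl1-5 N replicate 3). It was low in wild type N too, at 1.09 ± 0.64 CPM (SD, n = 3). MBP2, a related myrosinase-binding protein gene, was at 0, 0.714 and 1.83 CPM in chl1-5 N, against 2.22, 0.698 and 0.546 CPM in wild type N (adjusted p = 0.883). The 19 glucosinolate and camalexin genes examined as a list, which hold the biosynthesis enzymes and their MYB regulators, gave no call, 6 above and 13 below 0 and a median of -0.06. Of all genes tested, 0.0612% were called.

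The remaining called genes have few known roles. AT3G50800, which encodes an uncharacterized protein, was at 13.9, 19.6 and 16.1 CPM in chl1-5 N, against 1.27, 2.26 and 3.24 CPM in wild type N, and rose by 2.87 ± 0.40 (adjusted p = 0.000597). Wild type N was low beside wild type K, at 9 ± 3.61 CPM, and the septuple mutant in nitrate, at 7.68 ± 2.99 CPM (SD, n = 3 each). That mutant was also higher than wild type N (1.76, adjusted p = 0.00293). AT2G13175, annotated as a pseudogene, was at 5.7, 5.62 and 11.6 CPM in chl1-5 N, against 0 counts in every wild type N library, at least 221-fold higher by the 3 counts allowed over the group (adjusted p = 0.000342). It also had 0 counts in wild type K and in the septuple mutant in nitrate, while chl1-5 K held 621 counts in all. MSL9, a mechanosensitive channel known from the root plasma membrane, was at 14.3, 12 and 12 CPM in chl1-5 N, against 38.7, 25.3 and 21.6 CPM in wild type N (-1.16 ± 0.22, adjusted p = 0.0454). The 2 sets of libraries stood apart, and wild type N replicate 1 was the highest. Without it the difference in MSL9 was -0.87 (adjusted p = 0.375), and without any other library but wild type N replicate 3 its adjusted p was 0.0633 to 0.191.

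AT3G03040, which encodes an F-box/RNI-like protein of the kind that marks other proteins for degradation, was at 1.85, 1.71 and 1.61 CPM in chl1-5 N, against 20.3, 5.85 and 8.8 CPM in wild type N (-2.75 ± 0.45, adjusted p = 0.00615). Wild type N replicate 1 was again the highest, and the call of AT3G03040 was lost without it (adjusted p = 0.189) and without chl1-5 N replicate 2 or 3 (0.0602 and 0.0633). AT4G18593, a dual specificity phosphatase-like gene, was at 0.641, 0.809 and 0.439 CPM in chl1-5 N, against 7.02, 5.58 and 2.76 CPM in wild type N (-3.02 ± 0.59, adjusted p = 0.0454). Its call was lost without any library but wild type N replicate 3 (adjusted p between 0.0817 and 0.25). Both remaining genes lay under the 5 CPM set for named genes and were picked once their values had been seen. AT1G22960, a pentatricopeptide repeat gene of a family that acts on organelle RNA, was at 0.377, 0 and 0.11 CPM in chl1-5 N, against 4.8, 3.06 and 0.887 CPM in wild type N (-4.08 ± 0.75, adjusted p = 0.0253, and 0.0584 to 0.19 without chl1-5 N replicate 2 or 3 or wild type N replicate 1 or 2). AT1G78550, a 2-oxoglutarate-dependent oxygenase gene, had 1 count over the 3 chl1-5 N libraries and 135 over the 3 wild type N libraries, a ratio of wild type over chl1-5 of 119 with an exact 95% Poisson interval of 21.4 to 4710 that covers counting error only, not the spread between libraries (adjusted p = 0.0454). Its call was lost without any 1 of the 6 libraries (adjusted p between 0.0561 and 0.191).

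The same genotype difference without nitrate was read from the KCl libraries, which are separate from those in nitrate and were fitted in the same model. All 13 genes had the same sign in chl1-5 K as in chl1-5 N, 11 of them without overlap between the KCl libraries and 6 called there, where 25.2% of all genes tested did not overlap in KCl and 5.48% were called. ELP was at 1.31, 1.73 and 2.33 CPM in chl1-5 K, against 581, 1010 and 1180 CPM in wild type K, a difference of -9.01 ± 0.74 (adjusted p = 6.98e-08), and NRT1.1 differed by -2.82 ± 0.24 (adjusted p = 1.07e-07). ATKDSA2 differed by -4.25 and PRP2 by 1.25 in KCl (adjusted p = 0.00073 and 0.00649). MBP1 and AT2G13175 were called in KCl as well (adjusted p = 0.00106 and 6.63e-05). None of the 13 was called in the test of the difference between the salts, and only 2 of all 21229 genes were (0.00942%), RNS3 and AT5G44380.

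**Figure D2:**
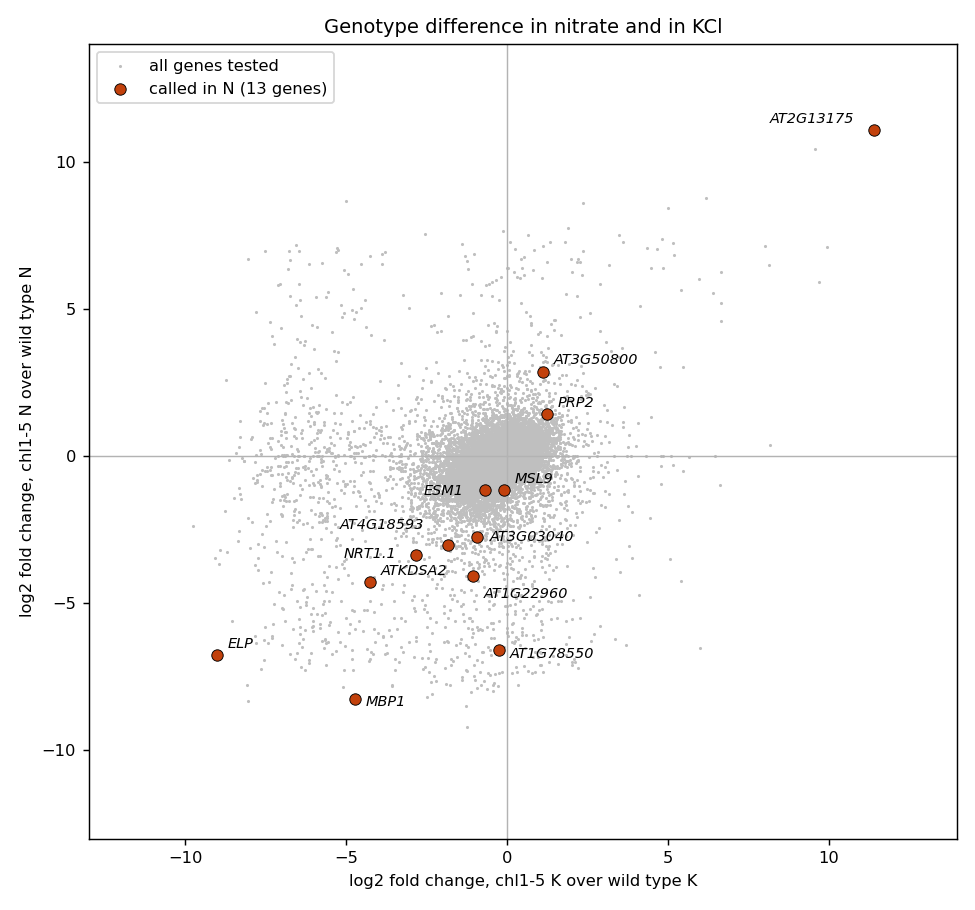
Log2 fold change of chl1-5 over wild type in nitrate (vertical) against that in KCl (horizontal); grey points are the 21229 genes tested and orange points the 13 genes called in nitrate. The called genes lie in the lower left and upper right of the plot, and fitted values of genes with 0 counts in a group, such as AT2G13175, depend on the prior count.

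Genes called in KCl mostly had the same sign in nitrate. In KCl 1163 genes (5.48%) were called in the same model, 563 higher in chl1-5 K (2.65%) and 600 lower (2.83%), against 13 in nitrate. That KCl count ran from 152 to 2537 when 1 KCl library was left out and was 41 when only the KCl libraries were fitted, alternatives chosen after seeing the data. It was 228 and 193 without chl1-5 K replicate 1 or 3 and 199 and 152 without wild type K replicate 1 or 3, but 2537 without chl1-5 K replicate 2 and 2111 without wild type K replicate 2. Of the 563 genes, 504 (89.5%) were above 0 in nitrate, where 47.1% of all genes tested were, with a median of 0.31 in nitrate and 0.91 in KCl. Of the 600 genes, 535 (89.2%) were below 0 in nitrate, where 52.7% of all genes tested were, with a median of -0.53 in nitrate and -1.35 in KCl. Being chosen by their KCl values, these genes have KCl medians enlarged by that choice, so the sizes in the 2 salts are not compared. Only 6 of these 1163 genes were called in nitrate, 2 higher and 4 lower. Over the 13505 genes with at least 5 CPM, the 2 sets of fold changes had a Pearson correlation of 0.55 and a Spearman correlation of 0.51 across genes, which share libraries within each salt and are no independent replicates.

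The genes that carry nitrate into metabolism gave no call after nitrate, and their levels mostly overlapped. NIR1, the nitrite reductase, was at 945, 1310 and 1380 CPM in chl1-5 N, against 1340, 1360 and 1490 CPM in wild type N, with overlap (-0.21 ± 0.21, adjusted p = 0.752). NIA1 and NIA2, the nitrate reductases, differed by -0.23 and -0.14 (adjusted p = 0.71 and 0.852), and UPM1, which makes the sirohaem cofactor of nitrite reductase, by -0.23 (adjusted p = 0.681). In KCl, NIR1 was at 285, 304 and 416 CPM in chl1-5 K, against 215, 250 and 156 CPM in wild type K (adjusted p = 0.0528). None of the 17 genes of nitrate reduction and ammonium assimilation was called, with 10 above and 7 below 0 and a median of 0.16, where the median of all genes tested was -0.03. Of all genes tested, 0.0612% were called and 15.1% did not overlap between genotypes. The lack of calls and the overlap are therefore not particular to these genes. Of 26 tested transporters and anion channels NRT1.1 alone was called, and the median was 0.06. NRT2.1, the main high-affinity transporter, was at 86.6, 236 and 149 CPM in chl1-5 N, against 107, 140 and 181 CPM in wild type N (0.14, adjusted p = 0.915). Its partner protein NRT3.1 differed by -0.14 (adjusted p = 0.873), and was called higher in KCl (0.86, adjusted p = 0.0357). A p that misses the threshold does not show that the levels were equal.

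**Figure D3:**
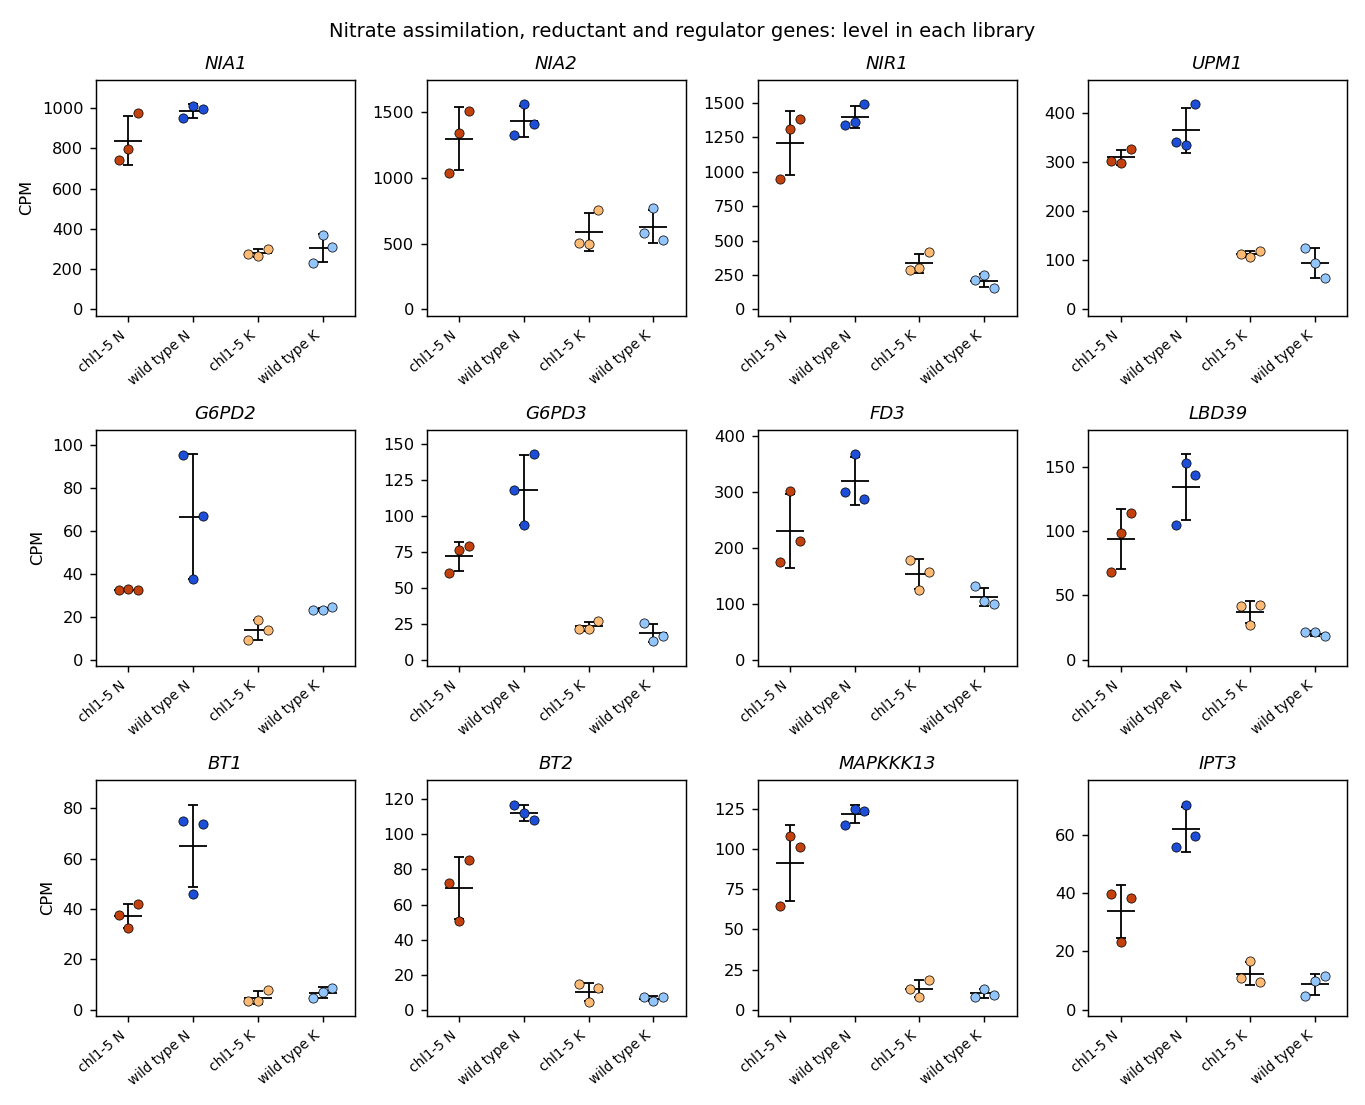
Level (CPM, linear axes from 0) of 12 genes of nitrate reduction, reductant supply, regulation and cytokinin synthesis in each library of chl1-5 N, wild type N, chl1-5 K and wild type K; points are libraries and bars the mean ± SD of 3. In nitrate edgeR called no gene shown, while LBD39 was called higher in chl1-5 K (adjusted p = 0.0435). The chl1-5 N libraries of UPM1, G6PD2, G6PD3, BT1, BT2, MAPKKK13 and IPT3 lie wholly below wild type N, where 8.25% of all genes tested did. The 12 genes were picked from longer lists, and 7 of the 28 tested regulators lay wholly below.

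The genes that supply reducing power leaned lower in chl1-5 N without reaching the threshold. Of 13 such genes, 10 were below 0, the median was -0.47, and 6 had all chl1-5 N libraries below all wild type N libraries, where 8.25% of all genes tested did. RFNR1, a root ferredoxin-NADP reductase, was at 44, 26 and 36.6 CPM in chl1-5 N, against 116, 76.6 and 68.7 CPM in wild type N, without overlap (-1.29 ± 0.32, adjusted p = 0.128). G6PD2, a plastid glucose-6-phosphate dehydrogenase of the oxidative pentose phosphate pathway, was at 32.4, 32.9 and 32.3 CPM in chl1-5 N, against 95.6, 37.5 and 66.8 CPM in wild type N (-1.03 ± 0.26, adjusted p = 0.128). The mutant libraries of G6PD2 were almost equal and the wild type ones spread widely. G6PD3, of the same enzyme family, was at 60.6, 76.6 and 79.1 CPM in chl1-5 N, against 118, 93.7 and 143 CPM in wild type N (-0.71 ± 0.22, adjusted p = 0.212). DESeq2 called RFNR1 and G6PD2 (adjusted p = 0.0179 and 0.0261). Both were below 0 in KCl too, RFNR1 by -0.93 with overlap (adjusted p = 0.0748) and G6PD2 by -0.77 without (adjusted p = 0.0732). Over the list the KCl median was -0.04, AT1G64190 was called higher there (0.72, adjusted p = 0.0489), and the salts' difference was called for no member.

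The regulators of the nitrate response showed the same lean. Of 28 tested, 22 were below 0 and 7 lay wholly below wild type N, where 8.25% of all genes tested did. The median was -0.40 in nitrate, with no call there by edgeR or DESeq2. In KCl the median was -0.03 and 2 regulators were called higher in chl1-5 K, where 2.65% of all genes tested were. They were LBD39 (0.87, adjusted p = 0.0435) and AT3G60320 (0.57, adjusted p = 0.0476). BT1 was at 37.5, 32.5 and 42 CPM in chl1-5 N, against 74.9, 46.1 and 73.9 CPM in wild type N, and BT2 at 72.5, 50.4 and 85.2 CPM, against 117, 112 and 108 CPM. These BTB and TAZ domain proteins are known from nitrogen use, and neither gene overlapped between the genotypes (-0.80 ± 0.30 and -0.69 ± 0.37, adjusted p = 0.304 and 0.472). LBD39, of the LBD37 to LBD39 repressors of nitrogen genes, was at 68.3, 98.7 and 114 CPM in chl1-5 N, against 105, 153 and 144 CPM in wild type N (-0.52 ± 0.25, adjusted p = 0.417), the opposite sign to its call in KCl, while LBD37 and LBD38 differed by -0.19 and -0.09. MAPKKK13, a kinase gene that nitrate is known to induce, was at 64.3, 108 and 101 CPM in chl1-5 N, against 115, 125 and 124 CPM in wild type N (-0.41 ± 0.28, adjusted p = 0.591). The 9 NLP genes had a median of 0 and no call in nitrate, and NLP3 was called higher in KCl (1.59, adjusted p = 0.0277).

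The septuple nlp mutant in nitrate was set against the wild type N libraries used above. Since both comparisons share those libraries, their values are only placed side by side: NIR1 was at -0.21 in chl1-5 and -4.39 in the septuple mutant, BT2 at -0.69 and -6.34, LBD37 at -0.19 and -4.20, and G6PD3 at -0.71 and -2.50. The medians of the reductant genes were -0.47 and -1.43, and those of the regulators -0.40 and -1.02. Other values were close to each other or further below 0 in chl1-5. RFNR1 was at -1.29 and -1.43, G6PD1 at -0.86 and 0.35, and the cytokinin response regulator ARR6 at -2.18 and -0.11. Relatives of these went both ways. RFNR2 was at -0.47 and -2.26, G6PD2 at -1.03 and -1.83, and ARR7 at -1.11 and -2.36. ARR3, ARR4, ARR9 and ARR16 also had lower values in the septuple mutant, while ARR5, ARR8 and ARR15 had lower values in chl1-5. The cytokinin medians were -0.90 and -0.71, although the cytokinin synthesis gene IPT3 was at -0.87 and -3.58.

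**Figure D4:**
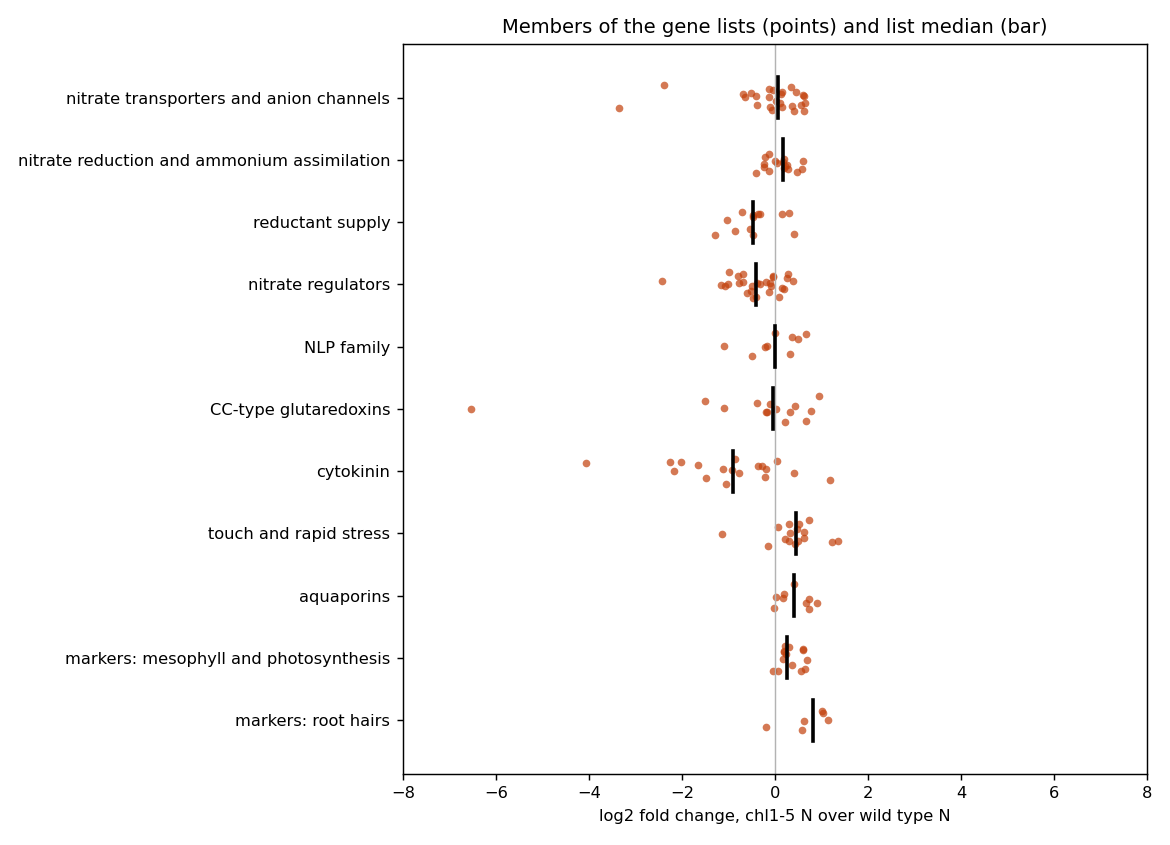
Log2 fold change of chl1-5 N over wild type N for the tested members of 11 gene lists; points are genes, spread vertically for sight only, and black bars the list medians. The medians of reductant supply, nitrate regulators and cytokinin lie below 0 at -0.47, -0.40 and -0.90, that of root hair markers above at 0.82, and members near 0 counts have fitted values that depend on the prior count.

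Among hormone genes, the cytokinin list leaned lowest. Of 18 cytokinin genes 15 were below 0 and 8 lay wholly below wild type N, where 8.25% of all genes tested did. The list had a median of -0.90 and no call in nitrate, and a median of -0.67 in KCl. IPT3, the cytokinin synthesis gene that nitrate is known to induce, was at 39.8, 23.4 and 38.3 CPM in chl1-5 N, against 55.7, 70.4 and 59.5 CPM in wild type N, without overlap (-0.87 ± 0.29, adjusted p = 0.233). ARR6 and ARR7 are type-A response regulators, which cytokinin induces and which damp its signal. ARR6 was at 1.89, 0.952 and 0.842 CPM in chl1-5 N, against 7.34, 4.55 and 4.88 CPM in wild type N (-2.18 ± 0.54, adjusted p = 0.128, and 0.00751 by DESeq2). ARR7 averaged 9.6 ± 2.84 CPM in chl1-5 N and 20.8 ± 5.35 CPM in wild type N, without overlap (SD, n = 3 each; -1.11 ± 0.37, adjusted p = 0.246). In KCl, which shares no library with these, ARR6 and ARR7 were called lower in chl1-5 K (adjusted p = 0.0447 and 0.0245).

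Outside the tissue marker lists, 4 list members on the higher side missed the edgeR threshold but were called by DESeq2. GH3.5, which joins auxin and salicylic acid to amino acids, was at 72.2, 98 and 90.3 CPM in chl1-5 N, against 40.5, 51.2 and 36.3 CPM in wild type N, without overlap (1.03 ± 0.21, adjusted p = 0.0671). ERF104, a stress-responsive ethylene response factor, was at 64, 91.9 and 67.9 CPM in chl1-5 N, against 19.6, 42.6 and 33.9 CPM in wild type N (1.22 ± 0.26, adjusted p = 0.0947), and it was called in KCl (1.98, adjusted p = 3e-04). SULTR1;1, a root sulfate transporter, was at 3.58, 8.28 and 6.67 CPM in chl1-5 N, against 1.74, 0.532 and 2.05 CPM in wild type N (2.1 ± 0.54, adjusted p = 0.13). EBF2, an F-box protein of ethylene signalling, was at 149, 131 and 128 CPM in chl1-5 N, against 62.5, 97.5 and 82.5 CPM in wild type N (0.75 ± 0.21, adjusted p = 0.184). In KCl, GH3.5 was called as well (0.76, adjusted p = 0.0371), SULTR1;1 was at 0.99 (adjusted p = 0.242) and EBF2 at 0.01 (adjusted p = 0.991). DESeq2 called all 4 in nitrate (adjusted p = 0.00212, 0.0041, 0.012 and 0.0469). By edgeR, the septuple mutant in nitrate was also higher than the same wild type N libraries for SULTR1;1 (2.2, adjusted p = 0.00763) and EBF2 (0.92, adjusted p = 0.00461). For GH3.5 and ERF104 that mutant was at -0.31 and 0.02. Over the 32 lists, 403 of 425 loci were tested, of which edgeR called 1, NRT1.1, DESeq2 called 13, and 78 had an unadjusted p under 0.05. Of all genes tested, edgeR called 0.0612% and DESeq2 1.09%, and 11.9% had an unadjusted p under 0.05 by edgeR.

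Markers of tissues were compared as a check of what the seedlings held. Mesophyll and photosynthesis markers were abundant in every library, with summed levels of 98700 to 127000 CPM in chl1-5 N and 82200 to 114000 CPM in wild type N, 13 of 14 above 0, a median of 0.27 and no call. In KCl the sums were 95100 to 126000 CPM in chl1-5 K and 44800 to 66900 CPM in wild type K, with a median of 0.97 and 12 of 14 called higher. Of all genes tested, 2.65% were called higher in KCl, and that count rested on single libraries, as given above. Root hair markers summed to 113, 278 and 206 CPM in chl1-5 N and to at most 113 CPM in wild type N, with 5 of 6 above 0. Their median was 0.82 in nitrate and 0.65 in KCl, and 0.67 for the septuple mutant over wild type in nitrate. COBL9, a wall protein of growing root hairs, was at 10.8, 21.6 and 15.9 CPM in chl1-5 N, against 6.27, 8.21 and 9.04 CPM in wild type N (1.03 ± 0.30, adjusted p = 0.189), and none of the 6 was called. Guard cell, vascular, endodermal and shoot epidermal markers gave no call by edgeR in nitrate either, while DESeq2 called the guard cell marker HT1, a kinase of stomatal movement, at 2.95 ± 2.77 CPM in chl1-5 N and 0.246 ± 0.234 CPM in wild type N (SD, n = 3 each; edgeR adjusted p = 0.185, DESeq2 adjusted p = 0.00575).

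Seed and embryo markers varied widely between libraries. Their 11 genes summed to 31.7, 19.4 and 9.08 CPM in chl1-5 N, against 0.436, 0.465 and 1.3 CPM in wild type N, and to 52.8, 2.4 and 19.2 CPM in chl1-5 K, against 0.965, 2.48 and 2.18 CPM in wild type K. The libraries did not overlap in nitrate and did in KCl, through chl1-5 K replicate 2. SESA3, a seed storage albumin, had 216, 107 and 40 counts in chl1-5 N, against 0 counts in all 3 wild type N libraries, at least 137-fold higher by the 3 counts allowed over the group (adjusted p = 0.178). CRA1, a cruciferin storage protein, had 230, 149 and 41 counts in chl1-5 N, against 6, 0 and 4 counts in wild type N (adjusted p = 0.19). None of the 9 tested was called by edgeR in nitrate, while DESeq2 called SESA1, SESA2, SESA3 and OLEO1, where it called 0.4% of all genes tested higher. In KCl edgeR called CRA1, CRU3 and SESA3 higher in chl1-5 K (adjusted p = 0.0271, 0.0347 and 0.0367), where 2.65% of all genes tested were. That KCl count rested on single libraries, as given above. The counts in chl1-5 K were 356, 18 and 154 for CRA1, 192, 8 and 24 for CRU3, and 169, 1 and 4 for SESA3. EM1 was at 0 in all libraries of both nitrate groups, and EM6 and ABI3, an embryo transcription factor, at 0 to 10 counts per library. The part of this seed signal in the differences above was not tested.

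**Figure D5:**
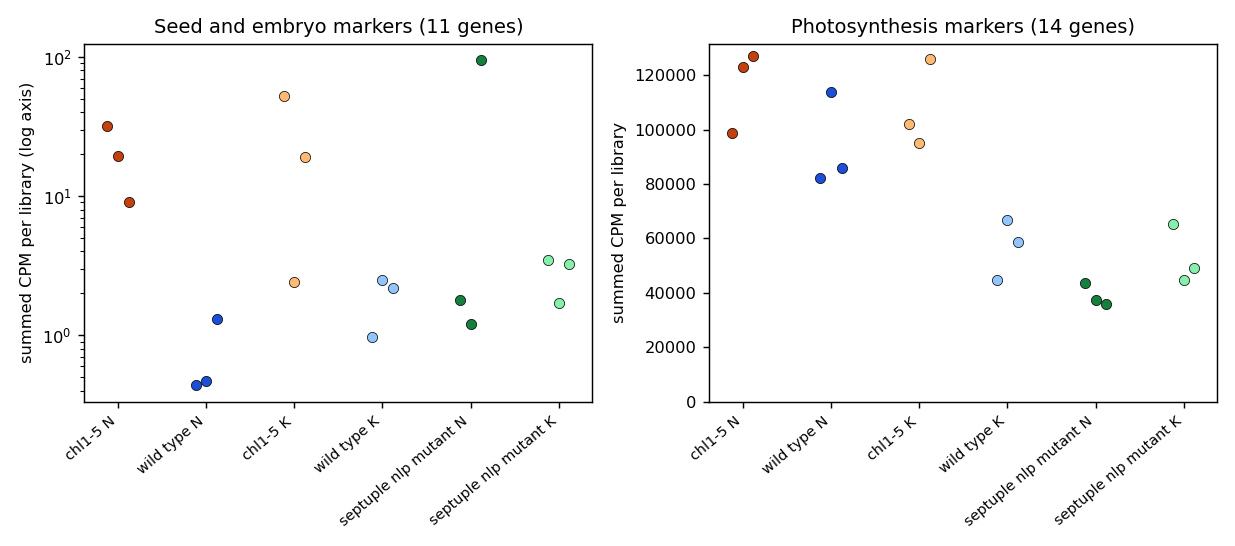
Summed CPM of the 11 seed and embryo markers (left, log axis) and the 14 photosynthesis markers (right, linear axis from 0) in each library of the 6 seedling groups; points are libraries. In nitrate the seed markers lie at 9.08 to 31.7 CPM in chl1-5 and 0.436 to 1.3 CPM in wild type, while 1 septuple mutant library in nitrate reached 94.8 CPM.

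Other genes had no count in 1 genotype. By a rule of 0 counts in 1 group and at least 1 CPM on average in the other, 6 genes were at 0 in chl1-5 N and 6 in wild type N, and MBP1 and AT2G13175 were the ones called. In chl1-5 N, AT4G04410, a pseudogene, had 0 counts against 17, 65 and 100 in wild type N, at least 53.6-fold lower (adjusted p = 0.0947), while in KCl it had 98 counts in chl1-5 K and 531 in wild type K (adjusted p = 0.53). ABCG39, an ATP-binding cassette transporter, had 0 counts against 39, 23 and 24 in wild type N, at least 25.3-fold lower (adjusted p = 0.108), and AT1G30515 had 0 counts against 32, 37 and 39, at least 31.8-fold lower (adjusted p = 0.128). AT2G36540 had 0 counts in chl1-5 N, against 52, 5 and 27 counts in wild type N, and did not enter the test. Of those at 0 in wild type N, 4 were the seed genes CRU2, OLEO1, SESA2 and SESA3. OFP10, an ovate family protein, had 0, 54 and 49 counts in chl1-5 N (adjusted p = 0.246). Its chl1-5 N replicate 1 was at 0 like wild type N, so no least fold is given. The least folds printed for other genes at 0 counts cover counting error only, not the spread between libraries. In KCl the direction of OFP10 was the opposite, with 0 counts in chl1-5 K and 13 in wild type K (adjusted p = 0.292).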

How the data were processed

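The authors deposited raw counts per gene as whole numbers, 1 file per library, unnormalized. The submitters' processing notes name TAIR10, HTSeq 0.6.1, featureCounts, TopHat2 2.1.1 and FastQC 0.11.5 without their roles; the library kit was NEBNext Ultra II, per the labels' protocols. No source used here gives the strand setting, so overlapping and antisense genes, and near-identical copies such as the seed albumins and NRT2.1 and NRT2.2, are uncertain. The 5 HTSeq total lines stayed out; reads without a gene came to 1.13 to 16.7% of those assigned in the 6 libraries. Of 37336 loci, 37051 were in the RefSeq TAIR10.1 gene table, used for names and gene order.

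All 18 seedling libraries (6 groups of 3) were fitted with edgeR 4.0.16 (R 4.3.3; quasi-likelihood test, TMM, filterByExpr by group), leaving 12 residual degrees of freedom, with Benjamini-Hochberg adjustment. The common biological coefficient of variation was 0.43. CPM used TMM-scaled totals, and SE is the fold change over the root of F. DESeq2 1.42.0 was an alternative. The code was tested on simulated data. No replicate pair was a duplicate (chi-square 29.2 to 76.6 per gene).

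Named were called genes of at least 5 CPM in a group with no overlap (15 highest and lowest), list members, NRT1.1 neighbours, genes of the salts' difference, and genes at 0 counts in 1 group and 1 CPM or more in the other. The comparison and the 32 lists were chosen with earlier results of these data known, so lists carry no test.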

Additional observations from a re-analysis of the deposited data

Results flagged for a closer look

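The genotype difference in nitrate differed from that in KCl for 2 genes by the test of the difference itself. For AT5G44380, a berberine bridge enzyme-like gene, the log2 difference of nitrate minus KCl was 1.93 ± 0.32 (edgeR, adjusted p = 0.0213). It was at 34, 50.8 and 34.9 CPM in chl1-5 N, against 32.3, 38.1 and 30.8 CPM in wild type N, and at 24.8, 27.2 and 15 CPM in chl1-5 K, against 84.7, 77.8 and 53.7 CPM in wild type K. The call was lost when chl1-5 N replicate 2 or 3, chl1-5 K replicate 1 or 3, wild type K replicate 1 or 2, or replicate 1 or 3 of wild type N was left out (adjusted p between 0.0603 and 0.126). For RNS3, a ribonuclease gene, the fitted difference was 11.31 (adjusted p = 0.0213), and this size depends on the prior count because all 3 chl1-5 K libraries had 0 counts. RNS3 was at 1.21, 2.9 and 4.8 CPM in chl1-5 N, against 0.634, 0 and 0.852 CPM in wild type N, and at 0 in chl1-5 K, against 0.755, 2.83 and 0.982 CPM in wild type K. Its call was lost when chl1-5 N replicate 3, chl1-5 K replicate 1 or 3, wild type K replicate 2, or replicate 1 or 3 of wild type N was left out (adjusted p between 0.0528 and 0.0998).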

How the results depend on the processing

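The counts depended on the processing, and the cause was not tested. In nitrate, DESeq2 called 85 genes higher and 146 lower, and dropping the filter on low counts 148 and 203. Fitting only the 6 libraries compared gave 9 higher and 9 lower, sharing 7 of the 13 genes. With 1 library left out, 2 to 8 genes were called higher and 4 to 11 lower. DESeq2 size factors and leaving out organellar loci gave the same 13 genes. For the difference between the salts, DESeq2 called 26 genes, no filter 54, and the 12 libraries alone 0 by edgeR (1191 with an unadjusted p under 0.05). Leaving out 1 library gave 0 to 21: 21 with chl1-5 K replicate 2 left out, 1 with wild type K replicate 1 left out, and 0 with chl1-5 N replicate 3, chl1-5 K replicate 1 or 3, wild type K replicate 2, or replicate 1 or 3 of wild type N left out (1460 to 2228 with an unadjusted p under 0.05). In KCl, DESeq2 called 2569 genes, no filter 2457, the KCl libraries alone 41, and leaving out 1 library 152 to 2537. Over the lists, DESeq2 called 9 members higher and 4 lower, where edgeR called 0 and 1. Of all genes tested, DESeq2 called 0.4% higher and 0.688% lower, and edgeR 0.0141% and 0.0471%. For the single genes named, 563 alternative values kept their side of the threshold, 58 lost and 26 gained a call, and none of those called turned its sign. Of the 563, 9 turned sign, all with 1 library left out and all for genes without a call (LBD38, NRT2.1, NRT3.1, NRT1.8 and AT1G12080).

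With the replicate number as a block, 4 genes were called higher and 6 lower in nitrate (9 of them among the 13), 1 for the difference between the salts and 706 in KCl. Same-numbered chl1-5 N and wild type N libraries correlated at 0.13, 0.17 and -0.07 in their deviations over 13505 genes. Differently numbered libraries correlated at -0.21 to 0.07. In chl1-5 N, replicates 1 and 2 correlated best with the wild type N library of their number, and replicate 3 with wild type N replicate 2 (0.07). Correlations this small do not settle whether the libraries were paired.

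Depth set a floor of 0.0997 to 0.143 CPM (3 counts over the TMM-scaled total) per library, below which a gene could not be told from absent by counting error alone.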

Other observations

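The remaining gene lists held no gene that edgeR called in nitrate, with 0 of their members past the threshold, where 0.0612% of all genes tested were called. They are given by their medians (log2 fold change of chl1-5 N over wild type N), where all genes tested had a median of -0.03. Aquaporins, the water channels of the cell membranes, had 8 of 9 genes above 0 and a median of 0.40. In KCl their median was 0.89 and 3 were called higher, where 2.65% of all genes tested were. PIP2;2, a plasma membrane aquaporin, was at 205, 381 and 316 CPM in chl1-5 N, against 115, 203 and 228 CPM in wild type N, with overlap (0.72 ± 0.28, adjusted p = 0.32). Touch and rapid stress genes had 14 of 16 above 0 and a median of 0.44. TCH4, a cell wall enzyme that touch is known to induce, was at 177, 207 and 168 CPM in chl1-5 N, against 136, 133 and 125 CPM in wild type N, without overlap (0.49 ± 0.20, adjusted p = 0.349). Of the ammonium transporters, 3 of 4 tested were above 0, and AMT1;3 was at 54.1, 124 and 66.8 CPM in chl1-5 N, against 35.2, 54.4 and 49.1 CPM in wild type N, with overlap (0.82 ± 0.29, adjusted p = 0.282) and a call in KCl (1.18, adjusted p = 0.0245). Gibberellin oxidases, which make and remove this growth hormone, had 5 of 7 below 0 and a median of -0.72, against -0.04 in KCl. Among them GA20OX1, GA2OX1 and GA2OX8, all below 0, averaged only 0.533, 0.631 and 2.12 CPM in wild type N. GA20OX2, above 0, averaged 0.996 CPM there. The better expressed GA2OX2 and GA2OX6 were at 0 and 0.06, and the median is the value of GA3OX1. GA3OX1 averaged 41.1 ± 11.7 CPM in chl1-5 N and 67.8 ± 11.2 CPM in wild type N (SD, n = 3 each; -0.72, adjusted p = 0.46), and was called in the opposite direction in KCl (1.38, adjusted p = 0.0378).

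The CC-type glutaredoxins, small redox proteins known from nitrogen signalling, split 7 above and 7 below 0 with a median of -0.05. Medians lay between 0.04 and 0.33 for ethylene, phosphate starvation, iron, flavonoid, abscisic acid, auxin, hypoxia, cell cycle and salicylic acid genes. They lay between -0.23 and -0.07 for sulfate, heat shock, jasmonate and circadian clock genes. DESeq2 called 3 members of these lists besides SULTR1;1, namely GH3.5, ERF104 and EBF2.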
